A study of Mus musculus with 4 samples.

Results

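The genes described here encode the secreted and membrane-bound cues that steer growing axons, and their receptors: semaphorins with plexins and neuropilins, netrins with Dcc, neogenin and the Unc5 receptors, Slits with Robos, and ephrins with Eph receptors. Membership was decided by gene symbol, although the families were picked with earlier results of these data known. Every symbol of these families in the count tables was taken, together with Dcc, Neo1 and Draxin, which gave 76 of 23282 listed genes. The symbol pattern also took in 3 genes that are not guidance receptors: Unc50, a Golgi membrane protein, Unc5cl, a relative of the intracellular part of the Unc5 receptors, and Plxna4os1, an RNA antisense to Plxna4. Transcripts were counted by RNA sequencing in 4 mammary gland tumour samples of female FVB mice that were 14 weeks old. Of these, 2 were labelled Nr1d1+/+ and 2 were labelled Nr1d1-/-, and all 4 carried PyMT, the polyoma virus middle T oncogene, which drives mammary carcinoma. REV-ERBα, the product of Nr1d1, is a repressive nuclear receptor within the circadian clock. The labels name neither the promoter that drives PyMT nor the exons that the Nr1d1 null allele lacks, and they do not state whether replicates are separate animals. The p-values therefore cover the spread among these samples alone, which could be technical.

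Guidance cues work by attraction or repulsion at the cell surface. Class 3 semaphorins are secreted and bind neuropilins, which pass the signal on through plexins, while most other semaphorins sit in the membrane and bind plexins directly. Netrin-1 attracts through Dcc and repels through Unc5 receptors, Slits repel through Robos, and ephrins are tethered ligands of the Eph receptor tyrosine kinases, so that ligand and receptor signal between touching cells. In the mammary gland, netrin-1 with neogenin, Slits with Robo1, and EphA2 are known for roles in duct formation, while neuropilins, Robo4, EphB4 and ephrin-B2 are best known from blood vessels.

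The libraries held 15905404 to 19116279 counts. Levels are CPM (counts scaled to a common library size) adjusted by the trimmed mean of M values (TMM), and each log2 fold is Nr1d1-/- over Nr1d1+/+ with its standard error (SE) from edgeR's quasi-likelihood test. Calls required an adjusted p below 0.05 (Benjamini-Hochberg over all 14801 tested genes). Nr1d1 itself stood at 20.2 and 10.3 CPM in Nr1d1+/+ replicates 1 and 2 and at 10.6 and 12.8 CPM in Nr1d1-/- replicates 1 and 2 (log2 fold -0.37, SE 0.35, adjusted p = 0.436), so the transcript count did not separate the genotypes and directions rest on the labels. Of the tissue's own cell type, 12 markers of luminal epithelium summed to 5847 to 6758 CPM in Nr1d1+/+ and 9719 to 10560 CPM in Nr1d1-/- libraries. Keratins carried much of this sum, which without Krt18 was 4701 and 4192 against 6099 and 6118 CPM. Of the 11 tested, 3 keratins rose, Cdh1 fell and 7 were not called, with a median log2 fold of -0.09. Nr1d1-/- replicate 1 held 823.1 CPM over 10 skeletal muscle markers, against 22.02 to 29.85 CPM in the other 3 libraries. The share of the ribosomal RNA precursor Rn45s was 2.94% and 3.39% in Nr1d1+/+ and 4.36% and 7.64% in Nr1d1-/- libraries. Fold differences also followed transcript length: the median log2 fold of the 2953 tested genes of at least 5000 bases was -0.47, and that of the 7184 genes under 3000 bases was 0.26.

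Of the 76 genes, 62 had enough counts to be tested and 14 did not. Among the 62, 10 rose and 4 fell in the libraries labelled Nr1d1-/-, and 48 did not pass. Dcc, Nrp1, Efnb1, Efna5, Sema6d, Ephb2, Nrp2, Unc5d, Sema6c and Robo4 rose, and Plxna1, Sema4g, Epha1 and Plxna3 fell. Across all tested genes 16.5% were called higher and 17.3% lower, so that the 16.1% of guidance genes called higher is close to the share of all genes, while 6.45% were called lower. The median log2 fold was 0.09 for the guidance genes and -0.01 for all tested genes. The genotypes' levels did not overlap for 38 of the 62 genes, 61.3%, beside 70.5% of all tested genes. Within the 30 tested ligands 4 rose and 1 fell, and within the 29 tested receptors 6 rose and 3 fell. With library size as the only scaling, which shifted the median of all genes to -0.38, 6 guidance genes were called higher and 12 lower. Among all tested genes, too, fewer were called higher and more lower under that scaling, so this shift was not particular to the guidance genes. With either Nr1d1+/+ replicate left out, fewer guidance genes were called, and fewer of all tested genes too. Fewer guidance genes were called without Nr1d1-/- replicate 1 and more without Nr1d1-/- replicate 2. Calls among all genes without an Nr1d1-/- replicate are not given here, so these shifts cannot be taken as particular to the guidance genes. Dcc, Nrp1, Efna5, Efnb1 and Plxna1 were called in all 16 alternative analyses.

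**Figure D1:**
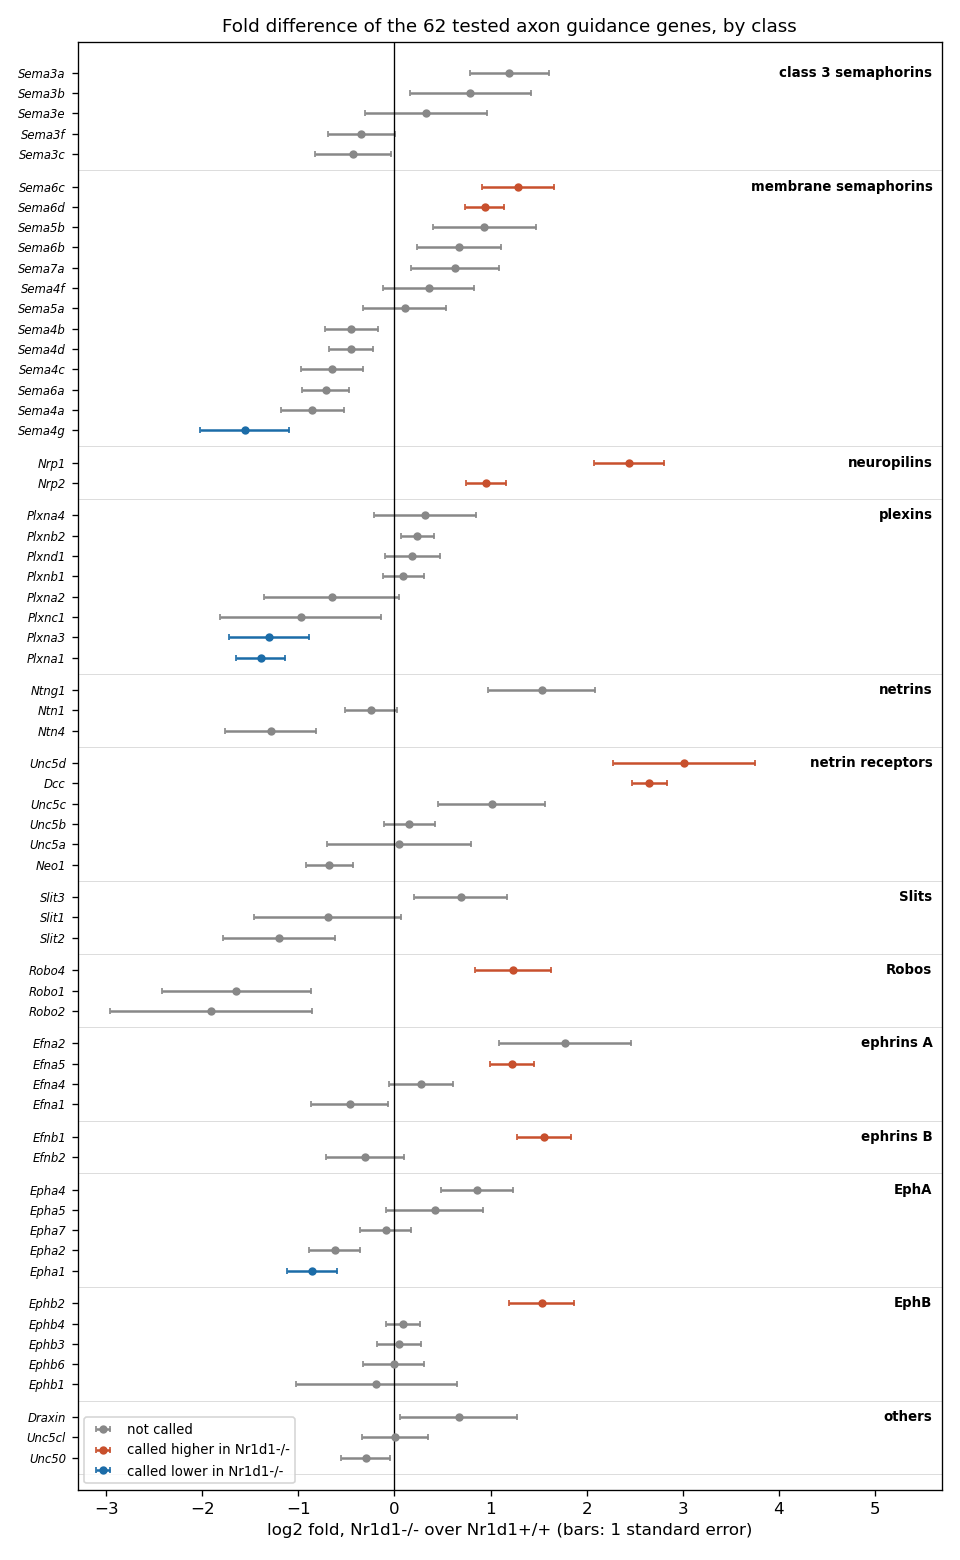
Log2 fold of each of the 62 tested genes (Nr1d1-/- over Nr1d1+/+, horizontal axis, bars of 1 SE), grouped by family on the vertical axis. Red points were called higher, blue points lower and grey points were not called; both neuropilins lie to the right of 0, while the plexins called lie to the left.

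The netrin receptors held the largest fold differences among the called genes. Dcc, the receptor through which netrin-1 attracts axons, spans bases 71253634 to 72351069 of chromosome 18 on the minus strand (GRCm38). Its level was 43.8 and 38.8 CPM in the Nr1d1+/+ libraries and 261 and 258 CPM in the Nr1d1-/- libraries. Both Nr1d1-/- libraries lay far above both Nr1d1+/+ libraries and close to each other. The rise was 6.29-fold (log2 fold 2.65, SE 0.18, adjusted p = 0.000813), and the log2 fold ran from 2.27 to 3.08 over the alternatives. Unc5d, a receptor that mediates repulsion by netrins, rose from a low level, with 9 and 6 counts in Nr1d1+/+ and 58 and 28 counts in Nr1d1-/- libraries. These are 0.426, 0.287, 4.25 and 1.74 CPM in the same order, and the groups did not overlap. The log2 fold was 3.01 (SE 0.73, adjusted p = 0.0151). Unc5d was no longer called without Nr1d1+/+ replicate 1 (adjusted p = 0.0664), Nr1d1+/+ replicate 2 (0.107) or Nr1d1-/- replicate 1 (0.0631).

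The other 4 netrin receptors were not called. Neo1, which encodes neogenin, a receptor for netrins and repulsive guidance molecules, stood at 33.2 and 41.4 CPM in Nr1d1+/+ and 27.2 and 19.5 CPM in Nr1d1-/- libraries. Its Nr1d1-/- values lay below both others, with a log2 fold of -0.68 (SE 0.25, adjusted p = 0.0607), and it was called lower without Nr1d1-/- replicate 1 (-0.94, adjusted p = 0.0327). Unc5b, a netrin receptor of blood vessels, had 10.93, 10.96, 12.02 and 12.35 CPM (log2 fold 0.16, SE 0.27, adjusted p = 0.682). Unc5c had 1.56, 3.16, 6.89 and 2.79 CPM (log2 fold 1.01, SE 0.56, adjusted p = 0.189), and it was called higher without Nr1d1-/- replicate 2 (1.53, adjusted p = 0.0484). Unc5a stayed at or under 1.25 CPM in every library.

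None of the 3 tested netrin ligands was called. Ntn1, the secreted ligand of Dcc and Unc5 receptors, had 48.1 and 31.9 CPM in Nr1d1+/+ and 27.4 and 40.1 CPM in Nr1d1-/- libraries, which overlap (log2 fold -0.24, SE 0.27, adjusted p = 0.519). Ntn4, a netrin of basement membranes, had 13.1 and 6.80 CPM against 2.49 and 5.52 CPM, with no overlap (log2 fold -1.29, SE 0.47, adjusted p = 0.0638). It was called lower without Nr1d1+/+ replicate 2 (-1.71, adjusted p = 0.0448) and without Nr1d1-/- replicate 2 (-2.01, adjusted p = 0.0231), and had -0.78 without Nr1d1+/+ replicate 1. Ntng1, a membrane-anchored netrin-G that does not bind Dcc, had 1.61, 1.20, 5.87 and 2.42 CPM (log2 fold 1.53, SE 0.56, adjusted p = 0.0632). It was called higher without Nr1d1-/- replicate 2 (2.04, adjusted p = 0.0151). Draxin, a secreted Dcc ligand, had 0.710, 1.63, 2.20 and 1.55 CPM (log2 fold 0.67, SE 0.61, adjusted p = 0.423).

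Since Dcc is best known from neurons, neuron markers are given beside it. Their 12 genes summed to 54.9 and 50.5 CPM in Nr1d1+/+ and 44.3 and 31.3 CPM in Nr1d1-/- libraries, and without Map2, the highest of them, to 14.5 and 11.5 against 29.1 and 15.9 CPM. Of the 6 tested, Elavl3 rose while Map2 and Rbfox3 fell, and Syt1 and Gap43 were at 0 counts in 3 of the 4 libraries. The 10 Schwann cell and glial markers summed to 429.7 and 390.7 against 900.2 and 576.8 CPM, with 3 rises and 2 falls among 9 tested. The part of these cells in the Dcc rise was not tested. In tumour RNA of this kind, fewer cells of a type and less RNA per cell cannot be told apart.

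Both neuropilins rose. Nrp1, the co-receptor of Sema3a and of vascular endothelial growth factor, lies on chromosome 8 from 128358604 to 128503363 on the plus strand (GRCm38). It stood at 35.0 and 22.6 CPM in Nr1d1+/+ libraries and at 214 and 98.9 CPM in Nr1d1-/- libraries. Replicate 1 of Nr1d1-/- was the highest, and the lower Nr1d1-/- library was still above both Nr1d1+/+ libraries. The rise was 5.43-fold (log2 fold 2.44, SE 0.37, adjusted p = 0.00294). Without Nr1d1-/- replicate 1, the library with the muscle transcripts, the log2 fold was 1.78 (adjusted p = 0.00324). Nrp2, which favours Sema3f and lymphatic growth factors, went from 54.1 and 57.2 CPM to 127 and 88.9 CPM, again without overlap (log2 fold 0.95, SE 0.21, adjusted p = 0.0108). The Nrp2 call was lost without Nr1d1+/+ replicate 1 (0.86, adjusted p = 0.0505) and when libraries were scaled by size alone (0.57, adjusted p = 0.0568).

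Summed endothelial and macrophage markers were also higher in the libraries labelled Nr1d1-/-. The 12 endothelial markers summed to 61.2 and 72.0 CPM in Nr1d1+/+ and 118 and 150 CPM in Nr1d1-/- libraries, where 6 rose and 6 were not called. Among those not called, Kdr and Cdh5 had both Nr1d1-/- libraries below both Nr1d1+/+ libraries (log2 folds -1.14 and -0.46). The 9 macrophage markers summed to 133 and 170.4 against 297 and 396.4 CPM, with 4 rises and 5 not called. Those that rose were C1qa, C1qb, C1qc and Cx3cr1. The markers not called had log2 folds from 0.016 (Adgre1) to 0.44 (Csf1r). No gene of either list was at 0 in any library. The 6 red blood cell markers summed to 452.8 and 581 CPM in Nr1d1+/+ and 2016 and 2194 CPM in Nr1d1-/- libraries, and all 5 tested rose. Basal epithelium markers summed to 160.7 and 171.8 against 364.6 and 511.9 CPM. Of the 7 tested, 4 rose, Trp63 fell and 2 were not called. Adipocyte markers summed to 38.75 and 67.27 against 148.6 and 106.2 CPM, with 2 rises and 5 not called among 7 tested. Without Fabp4, the highest of them, the adipocyte sums overlapped, at 14.5 and 27.7 against 48.2 and 23.0 CPM. Within Nr1d1-/-, replicate 1 was the higher for Nrp1 and Nrp2 and for the adipocyte, Schwann and glial and muscle sums, and replicate 2 for the endothelial, macrophage, red blood cell and basal sums. The part of these cells in the neuropilin rise was not tested.

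Promoter sequence bears on these genes because REV-ERBα binds DNA. Windows of 250 bases before RefSeq start sites (GRCm38.p6) were present for 65 of the 76 genes and were searched on both strands for AGGTCA, the half-site bound by REV-ERB and ROR receptors, and for CACGTG, the E-box of CLOCK and BMAL1. AGGTCA stood in 10 of the 68 windows of tested guidance genes, 14.7%, and in 11.3% of the windows of all tested genes. Counted by gene, it stood in windows of 2 of the 8 genes called higher that had a window, Nrp1 and Robo4, and of none of 3 called lower. The called genes Dcc, Unc5d and Plxna1 had no window and were not searched. AGGTCA also stood in windows of 8 of the 42 guidance genes not called, 19%, and of 13.3% of all tested genes with a window. TAGGTCA, a longer form that contains AGGTCA, stood in no guidance window and in 1.6% of the windows of all tested genes. CACGTG stood in 3 of the 68 windows, 4.41%, and in 7.89% of those of all tested genes. A match is a description of letters and no evidence of binding, and a missing match says nothing of the receptor. Shown are the windows of the called genes with a match, cut where annotated exons begin, and that of Efna5, the most abundant called ligand, which holds neither motif. Capitals mark AGGTCA or its reverse complement, or CACGTG. The windows are Nrp1 at chr8:128358823-128359072 on the plus strand, which lies within the GENCODE gene but in no exon, Robo4 at chr9:37401722-37401896 on the plus strand, Sema6d at chr2:124089719-124089968 on the plus strand and Efna5 at chr17:62881318-62881567 on the minus strand.
Nrp1: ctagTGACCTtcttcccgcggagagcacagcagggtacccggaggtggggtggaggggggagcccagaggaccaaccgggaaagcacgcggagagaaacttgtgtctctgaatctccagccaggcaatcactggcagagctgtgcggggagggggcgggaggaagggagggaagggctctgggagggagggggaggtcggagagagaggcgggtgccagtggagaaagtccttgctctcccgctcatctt
Robo4: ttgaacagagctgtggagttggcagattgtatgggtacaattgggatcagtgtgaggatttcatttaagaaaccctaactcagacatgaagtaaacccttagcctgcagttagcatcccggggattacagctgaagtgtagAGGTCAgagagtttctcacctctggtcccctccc
Sema6d: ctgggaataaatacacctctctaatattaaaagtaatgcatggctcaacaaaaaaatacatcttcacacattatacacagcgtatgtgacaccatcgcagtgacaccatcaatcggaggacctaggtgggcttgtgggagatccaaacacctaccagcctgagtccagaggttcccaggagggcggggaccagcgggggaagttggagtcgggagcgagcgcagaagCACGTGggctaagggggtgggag
Efna5: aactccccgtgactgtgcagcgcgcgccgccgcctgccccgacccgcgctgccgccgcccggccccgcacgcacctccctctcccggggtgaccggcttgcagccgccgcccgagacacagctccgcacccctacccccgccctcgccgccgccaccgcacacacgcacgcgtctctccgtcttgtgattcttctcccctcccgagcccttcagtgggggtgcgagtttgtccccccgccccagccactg
In Nrp1 the match begins 246 bases before the start site and reads on the opposite strand, in Robo4 it begins 109 bases before it, and in Sema6d the E-box begins 23 bases before it.

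The secreted ligands of the neuropilins were low and none was called. Sema3a, the classical repellent of the Nrp1 pathway, had 2.27 and 1.92 CPM in Nr1d1+/+ and 4.84 and 4.78 CPM in Nr1d1-/- libraries, with no overlap. It missed the threshold (log2 fold 1.20, SE 0.41, adjusted p = 0.0504) and passed with GC and length trends removed (1.76, adjusted p = 0.018). Sema3c and Sema3f were the most abundant of the class per length. Sema3c had 9.70, 14.0, 12.2 and 5.59 CPM (log2 fold -0.43, SE 0.40, adjusted p = 0.43), and Sema3f had 6.77, 7.71, 4.62 and 6.70 CPM (log2 fold -0.34, SE 0.35, adjusted p = 0.473). Sema3b and Sema3e stayed at or under 1.47 CPM, with log2 folds of 0.79 (SE 0.63) and 0.33 (SE 0.64), and Sema3e binds Plxnd1 without a neuropilin. Sema3d and Sema3g were not tested, with at most 14 and 9 counts in a library.

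Among the plexins, 2 of 8 tested fell (25%) and none rose, beside 17.3% lower and 16.5% higher among all tested genes. Plxna1, a signalling partner of the neuropilins, occupies bases 89316314 to 89362620 of chromosome 6 (GRCm38, minus strand). Its level was 30.1 and 41.1 CPM in Nr1d1+/+ and 12.3 and 14.8 CPM in Nr1d1-/- libraries. All values of one genotype lay apart from the other, and the fall was 2.62-fold (log2 fold -1.39, SE 0.25, adjusted p = 0.00514). Plxna3, another neuropilin partner, had 11.2 and 13.6 CPM against 2.79 and 7.07 CPM (log2 fold -1.31, SE 0.42, adjusted p = 0.0402). Plxna3 was no longer called with GC and length trends removed (-1.22, adjusted p = 0.0719) or without Nr1d1+/+ replicate 1 (-1.49, adjusted p = 0.0642), Nr1d1+/+ replicate 2 (-1.18, adjusted p = 0.161) or Nr1d1-/- replicate 1 (-0.81, adjusted p = 0.122). The neuropilins rose in the libraries in which these class A plexins fell.

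The class B and D plexins were not called. Plxnb2, a receptor of class 4 semaphorins, had the highest level of the family per length, with 154, 176, 188 and 200.4 CPM (log2 fold 0.24, SE 0.17, adjusted p = 0.308). Plxnb1, the main receptor of Sema4d, had 34.8, 29.4, 32.0 and 36.4 CPM (log2 fold 0.09, SE 0.21, adjusted p = 0.759). Plxnd1, the vascular receptor of Sema3e, had 13.6, 22.9, 20.3 and 21.2 CPM (log2 fold 0.19, SE 0.29, adjusted p = 0.647). Plxna2, Plxna4 and Plxnc1 stayed at or under 2.11 CPM and were not called, and Plxnb3 was not tested, with 10, 32, 6 and 0 counts.

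Of the 13 membrane-bound semaphorins, all of which were tested, 2 rose, 1 fell and 10 did not pass. Sema6d, which binds class A plexins and whose promoter window with an E-box is printed above, rose from 41.2 and 44.3 CPM to 92.9 and 71.2 CPM (log2 fold 0.94, SE 0.20, adjusted p = 0.00949). Sema6c, of the same class, rose from 3.79 and 2.73 CPM to 9.16 and 6.83 CPM (log2 fold 1.29, SE 0.38, adjusted p = 0.0299). For both genes every Nr1d1-/- library lay above every Nr1d1+/+ library. Sema6d was not called without Nr1d1+/+ replicate 1 (0.84, adjusted p = 0.0528) or when libraries were scaled by size alone (0.55, adjusted p = 0.0567). The Sema6c call was lost with GC and length trends removed (0.87, adjusted p = 0.12), with library size only (0.91, adjusted p = 0.0858), and without Nr1d1+/+ replicate 1 (adjusted p = 0.0757), Nr1d1+/+ replicate 2 (0.198) or Nr1d1-/- replicate 1 (0.0999).

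Of the 6 class 4 semaphorins, 1 fell and 5 were not called. Sema4g fell from 7.90 and 13.4 CPM to 2.05 and 5.03 CPM (log2 fold -1.56, SE 0.47, adjusted p = 0.0317). It was not called when Nr1d1+/+ replicate 2 was left out (-1.15, adjusted p = 0.201), nor without Nr1d1-/- replicate 1 (-1.09, adjusted p = 0.096). Sema4d, a ligand of Plxnb1 that also acts on immune cells, had 28.8, 35.6, 21.5 and 25.5 CPM (log2 fold -0.45, SE 0.23, adjusted p = 0.154). Sema4a had 11.2, 11.5, 4.91 and 7.57 CPM (log2 fold -0.86, SE 0.33, adjusted p = 0.0729), and it was called lower without Nr1d1-/- replicate 2 (-1.23, adjusted p = 0.0368). Sema4b and Sema4c had log2 folds of -0.45 (SE 0.28) and -0.65 (SE 0.32), and Sema4f had 0.36 (SE 0.47). Sema6a stood at 33.7 and 39.1 against 26.2 and 18.1 CPM (log2 fold -0.72, SE 0.25, adjusted p = 0.0507), without overlap. For Sema6a the adjusted p was 0.272 with GC and length trends removed, and the log2 fold was -1.01 without Nr1d1-/- replicate 1. The gene was called lower in 5 of the 16 alternatives. These included DESeq2 (adjusted p = 0.0499), limma-voom (0.0457) and the replicate block (0.0422), all near the threshold. With library size only, Sema4a, Sema4b, Sema4c, Sema4d and Sema6a were all called lower, at adjusted p-values of 0.0187, 0.045, 0.0382, 0.0239 and 0.00753. Sema5a, Sema5b, Sema6b and Sema7a had log2 folds from 0.11 to 0.93 and were not called.

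**Figure D2:**
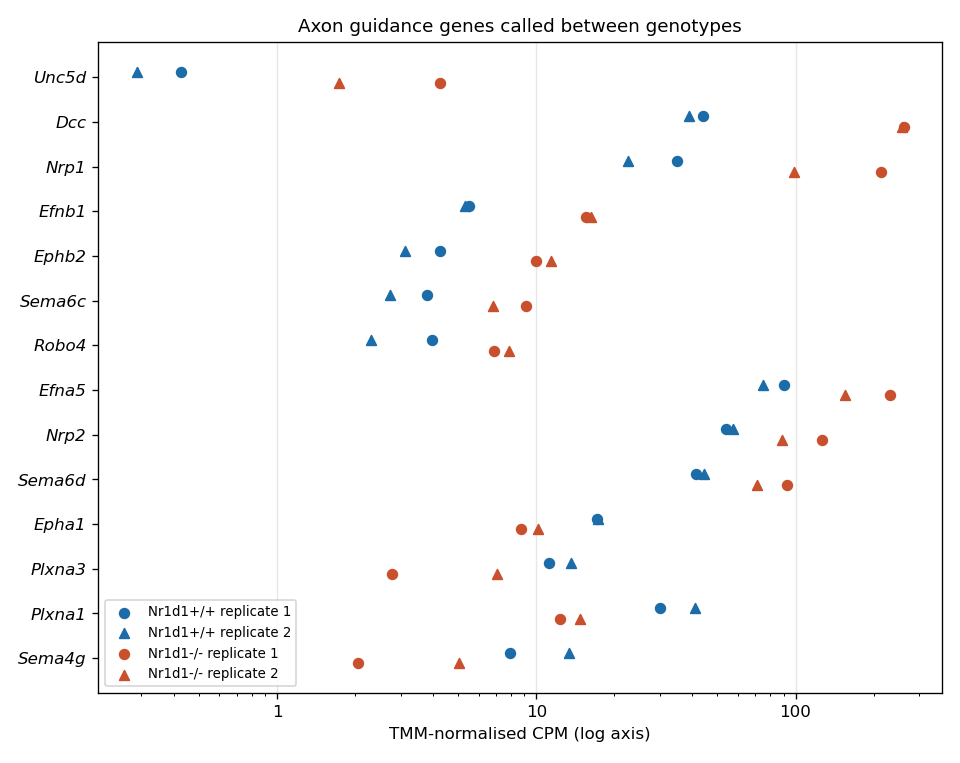
TMM CPM of the 14 called genes in each library (log axis; 1 point per library, blue for Nr1d1+/+ and red for Nr1d1-/-), ordered by log2 fold. No gene has overlapping genotypes, and the Dcc points of Nr1d1-/- lie at 258 and 261 CPM.

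Of the tested ephrins, 1 of 4 of class A and 1 of 2 of class B rose. Efna5, an ephrin linked to the membrane by a lipid anchor and the gene of the printed window with neither motif, occupies bases 62604184 to 62881317 of chromosome 17 (GRCm38, minus strand). Its level was 90.5 and 74.9 CPM in Nr1d1+/+ and 232 and 155 CPM in Nr1d1-/- libraries, with the highest value again in Nr1d1-/- replicate 1. The rise was 2.34-fold (log2 fold 1.23, SE 0.23, adjusted p = 0.00547), and the log2 fold was 0.905 without that library (adjusted p = 0.016). Efnb1, a transmembrane ephrin encoded on chromosome X from 99136130 to 99148991 on the plus strand, went from 5.49 and 5.31 CPM to 15.5 and 16.3 CPM. Its values agreed closely within each genotype, and the rise was 2.94-fold (log2 fold 1.56, SE 0.28, adjusted p = 0.00511).

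The other tested ephrins were not called. Efna1, a ligand of EphA2 that is common in epithelia, had 14.1, 18.4, 6.598 and 16.8 CPM (log2 fold -0.46, SE 0.40, adjusted p = 0.398), with Nr1d1-/- replicate 1 alone low. Its log2 fold was 0.04 without that library and -1.32 without Nr1d1-/- replicate 2 (adjusted p = 0.0243). Efna2 showed the opposite, with 4.49, 4.02, 25.5 and 4.03 CPM, so that 1 library carried its log2 fold of 1.77 (SE 0.69, adjusted p = 0.0767). Without Nr1d1-/- replicate 1 the Efna2 value was -0.08, and without Nr1d1-/- replicate 2 it was 2.56 and called (adjusted p = 0.00119). Efna4 had 5.39, 7.23, 7.26 and 8.005 CPM (log2 fold 0.28, SE 0.33, adjusted p = 0.55). Efnb2, the arterial ligand of EphB4, had 10.7, 7.33, 9.97 and 4.78 CPM (log2 fold -0.31, SE 0.41, adjusted p = 0.588).

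Of the Eph receptors, 1 rose and 1 fell among 10 tested. Ephb2, a receptor of B ephrins, rose from 4.26 and 3.11 CPM to 9.97 and 11.4 CPM (log2 fold 1.53, SE 0.34, adjusted p = 0.0107), and it was not called without Nr1d1+/+ replicate 2 (1.30, adjusted p = 0.0886). Epha1 fell from 17.1 and 17.2 CPM to 8.72 and 10.2 CPM (log2 fold -0.86, SE 0.26, adjusted p = 0.035). Its annotated exons share 236 bases with Zyx on the opposite strand. No source used here gives the strand setting of the counting, so reads of Epha1 and Zyx may not be told apart and the value is uncertain. The Epha1 call was lost without Nr1d1+/+ replicate 1 (adjusted p = 0.116), Nr1d1+/+ replicate 2 (0.145) or Nr1d1-/- replicate 1 (0.102).

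Epha2, an epithelial receptor tied to mammary branching and carcinoma, had 63.1 and 37.2 CPM in Nr1d1+/+ and 31.3 and 33.8 CPM in Nr1d1-/- libraries (log2 fold -0.62, SE 0.27, adjusted p = 0.101). The groups did not overlap, but Nr1d1+/+ replicate 1 stood alone: without it the log2 fold was -0.24, and without Nr1d1+/+ replicate 2 it was -0.98 (adjusted p = 0.0334). Epha4 had 5.35, 6.13, 13.6 and 7.38 CPM (log2 fold 0.86, SE 0.37, adjusted p = 0.106). It was called higher with GC and length trends removed (1.31, adjusted p = 0.0328) and without Nr1d1-/- replicate 2 (1.22, adjusted p = 0.0287). Epha7 and Epha5 overlapped between genotypes, with log2 folds of -0.09 (SE 0.27) and 0.42 (SE 0.51). Ephb4, the venous receptor of ephrin-B2, was the most abundant Eph transcript per length and had 93.7, 96.0, 91.9 and 109.9 CPM (log2 fold 0.09, SE 0.18, adjusted p = 0.728). Ephb3, Ephb6 and Ephb1 overlapped too, with log2 folds of 0.05, -0.01 and -0.19. For Ephb4 the annotated exons share 33 bases with Zan on the opposite strand.

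Slit and Robo transcripts were scarce. Robo4, the Robo of blood vessels and the other called gene with AGGTCA in its window, rose from 3.97 and 2.30 CPM to 6.89 and 7.88 CPM (log2 fold 1.24, SE 0.40, adjusted p = 0.0408), beside the endothelial sums given above, whose part in this rise was not tested. The call held in none of the 4 analyses that left out 1 library, where the adjusted p was 0.0618 and 0.28 without Nr1d1+/+ replicates 1 and 2 and 0.057 and 0.1 without Nr1d1-/- replicates 1 and 2, and it was 0.115 with library size only. Robo1, a receptor of Slit2, had 48, 19, 6 and 9 counts, or 2.27, 0.910, 0.440 and 0.558 CPM (log2 fold -1.65, SE 0.77, adjusted p = 0.131). Robo2 had 11, 11, 1 and 3 counts (log2 fold -1.91, SE 1.05, adjusted p = 0.186). Slit2 had 2.08, 4.26, 0.953 and 1.74 CPM (log2 fold -1.21, SE 0.58, adjusted p = 0.141). Slit3 had 1.56, 3.69, 4.03 and 4.41 CPM (log2 fold 0.69, SE 0.49, adjusted p = 0.302), and Slit1 had 1.09, 1.34, 1.32 and 0.248 CPM (log2 fold -0.70, SE 0.77, adjusted p = 0.511). Robo1, Robo2 and Slit2 each had both Nr1d1-/- libraries below both Nr1d1+/+ libraries, but at these counts the differences were not detectable by the test.

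To compare genes with each other, levels were divided by the length of the longest coding transcript and are given as CPM per kb. In the Nr1d1+/+ libraries the order began with Plxnb2 (23.7 and 27.0 CPM per kb), Ephb4 (21.6 and 22.1) and Efna5 (22.4 and 18.6), of which Ephb4 and Efna5 overlapped. Unc50 followed at 13.9 and 13.6 CPM per kb and Epha2 at 16.1 and 9.50 CPM per kb. Nrp1 was ninth by its mean and Dcc 16th, at 4.24 and 3.76 CPM per kb. In the Nr1d1-/- libraries the order began with Efna5 (57.5 and 38.5 CPM per kb), Nrp1 (59.5 and 27.5), Plxnb2 (29.0 and 30.8), Dcc (25.3 and 25.0) and Ephb4 (21.2 and 25.3). The values of Efna5 and Nrp1 overlapped, as did those of Nrp1 and Plxnb2 and those of Dcc and Ephb4, so these neighbours do not differ beyond their spread. Among the Nr1d1+/+ libraries the same held for Unc50 and Epha2.

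**Figure D3:**
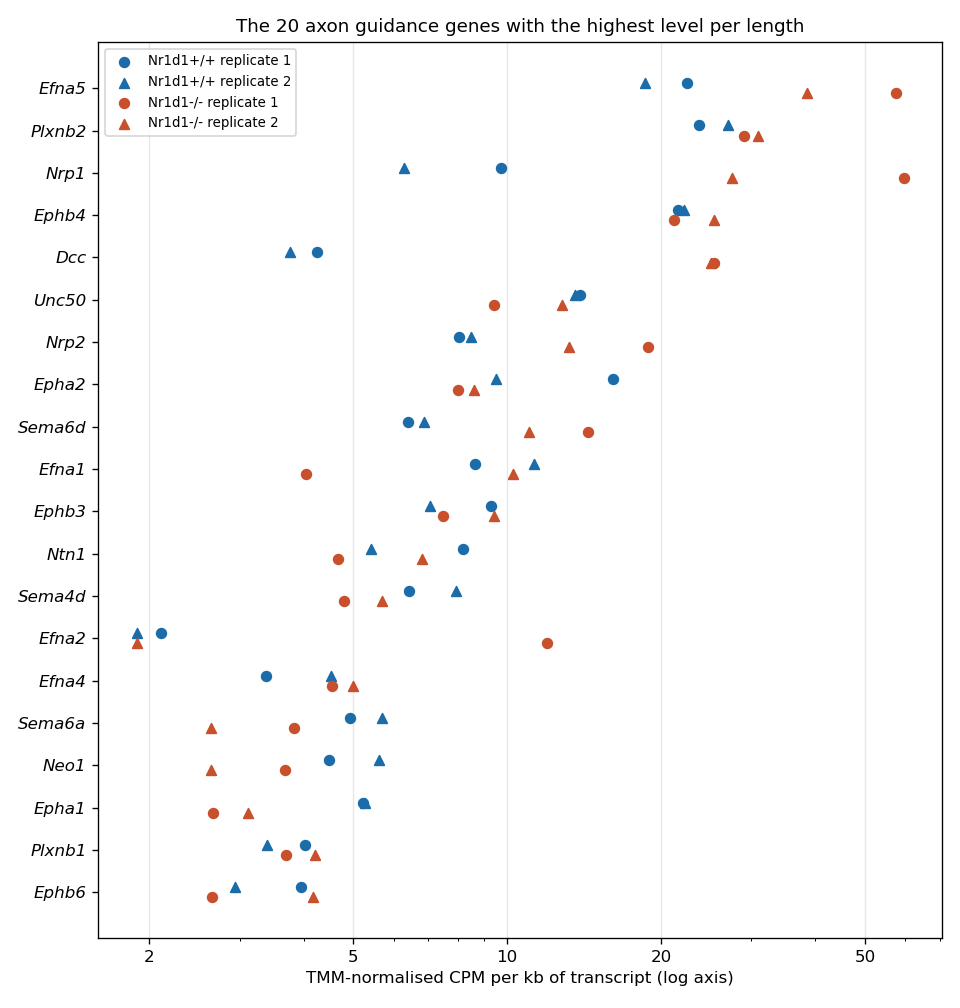
TMM CPM per kb of transcript for the 20 genes with the highest mean over all 4 libraries (log axis; 1 point per library, blue for Nr1d1+/+ and red for Nr1d1-/-). The 4 Ephb4 points overlap between genotypes, whereas those of Dcc and Nrp1 are separated, and the Efna2 point of Nr1d1-/- replicate 1 stands apart.

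Summed over all 76 genes, the level per length was 232.6 and 229.7 CPM per kb in Nr1d1+/+ and 345.1 and 295.7 CPM per kb in Nr1d1-/- libraries. Neuropilins made up 7.64% and 6.44% of this sum in Nr1d1+/+ and 22.7% and 13.8% in Nr1d1-/- libraries. Dcc alone made up 1.82% and 1.64% against 7.34% and 8.46%. The A ephrins made up 15.7% and 15.8% against 22.6% and 18.9%, while the EphA receptors made up 11% and 7.95% against 4.63% and 5.25%. The shares of one set depend on all others, so a lower share does not show a lower level. The sum of the plexins was 35.0 and 41.0 against 37.7 and 41.1 CPM per kb.

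The 14 genes left out of the test had at most 32 counts in any library. Epha8, Ntn5 and Plxna4os1 had 0 counts in all 4 libraries, which allows up to 3 counts or 0.142 to 0.22 CPM in a library, for counting error only. Efna3, Efnb3, Epha6, Ntn3 and Robo3 had at most 5 counts in any library. Epha3 had 9 and 8 counts in Nr1d1+/+ and 0 in both Nr1d1-/- libraries, 2.0-fold lower by its mean when zeros are set to a floor of 3 counts. Epha10 had 0 counts in both Nr1d1+/+ libraries and 7 and 3 in Nr1d1-/- libraries, 2.4-fold higher by the same floor. Counting error of the observed counts is left out of both values, and Epha10 in Nr1d1-/- replicate 2 held no more counts than the floor. The Epha10 exons share 79 bases with a gene on the opposite strand. The Epha3 and Epha10 differences were not tested. Ntng2 had 3, 6, 7 and 14 counts.

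Because guidance transcripts are long, with a median of 5214 bases among the tested genes against 3042 bases among all tested genes, length and GC content were followed separately. The 32 guidance genes of at least 5000 bases had a median log2 fold of 0.17, where all genes of that length had -0.47. Of these guidance genes 5 were called higher and 2 lower, beside 11.1% and 32.9% of all genes of that length. By GC content the median of all genes was -0.32 under 50% and 0.39 at 55% or more. The 31 guidance genes of at least 55% GC had a median of 0.09. There 3 were called higher and 4 lower, beside 26% and 5.94% of all genes of that GC content. The 21 guidance genes under 50% GC had 0.11, with 4 higher and 0 lower, beside 10.9% and 25.5%. With the GC and length trends of each library removed, 12 guidance genes were called higher and 3 lower, beside 11% and 11.1% of all 14650 genes in that fit. Of the 14 calls, 12 were kept in the same direction, and Sema6c and Plxna3 were lost. Sema3a, Ntng1 and Epha4 were called higher in addition, with Ntng1 at a log2 fold of 1.95 (adjusted p = 0.0372). Dcc went to 3.07, Nrp1 to 2.61 and Efna5 to 1.62.

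**Figure D4:**
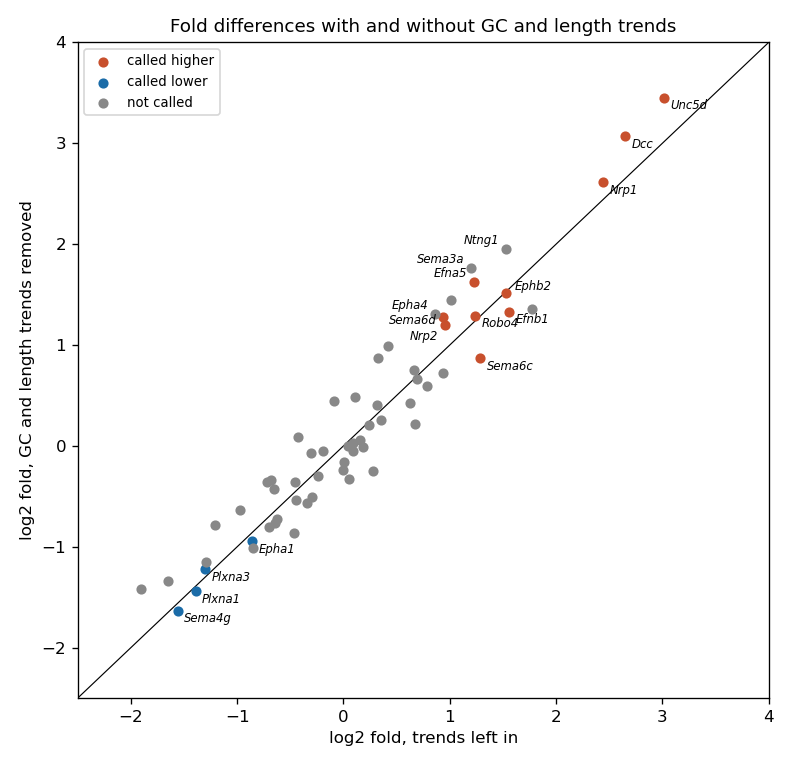
Log2 fold of the 62 tested genes with GC and length trends left in (horizontal axis) and removed (vertical axis); the line marks equal values and colours give the calls with trends left in. Dcc, Nrp1 and Unc5d stay at the upper right, and the 4 genes called lower stay below 0.

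Signalling partners of these receptors were followed as a list of 97 genes present in the tables, of which 90 were tested. Of these, 10 rose, 25 fell and 55 did not pass, with a median log2 fold of -0.27. The shares were 11.1% higher and 27.8% lower, beside the 16.5% and 17.3% of all tested genes. Their median transcript was 4780 bases long, and with GC and length trends removed 7 rose and 18 fell. Without Nr1d1+/+ replicate 2 the counts were 3 and 13. Without Nr1d1+/+ replicate 1 they were 6 and 18, and with library size only 4 rose and 37 fell. Of the 30 tested kinases and adaptors, 3 rose and 11 fell. Rock1 and Rock2, kinases that act in growth cone collapse, fell from 98.9 ± 5.58 to 27.2 ± 2.84 CPM (SD, n = 2) and from 78.0 ± 15.1 to 19.4 ± 3.57 CPM, with adjusted p-values of 0.00138 and 0.00201. Rasa1, a Ras inhibitor that binds Eph receptors, fell from 65.8 ± 4.999 to 22.2 ± 6.99 CPM (log2 fold -1.56, SE 0.25, adjusted p = 0.00343). Pak2, a kinase activated by Rac1, fell from 73.2 ± 11.2 to 29.1 ± 4.71 CPM, and Arhgef11, an exchange factor bound by B plexins, from 33.9 ± 0.320 to 14.1 ± 0.184 CPM.

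Other ligands and co-receptors of the list had 5 rises and 3 falls among 21 tested. Lrrc4c, the partner of netrin-G1 at synapses, rose from 2.81 ± 0.313 to 11.02 ± 2.87 CPM (log2 fold 1.96, SE 0.37, adjusted p = 0.00555), and Lrrc4b, of the same family, rose from 0.689 ± 0.297 to 3.98 ± 1.94 CPM. Chl1, an adhesion molecule that associates with Nrp1, rose from 63.7 ± 28.4 to 189.5 ± 47.6 CPM (log2 fold 1.57, SE 0.31, adjusted p = 0.00681). Trem2, a macrophage receptor, rose from 5.14 ± 0.649 to 12.7 ± 2.35 CPM. Trim67, a brain ubiquitin ligase that binds Dcc, rose from 6.42 ± 1.29 to 21.6 ± 7.49 CPM (log2 fold 1.75, SE 0.33, adjusted p = 0.00594).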

How the data were processed

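Per the labels' protocols, RNA of the 4 tumours came from Trizol extraction and libraries from a stranded SMARTer kit (Clontech). The authors deposited unnormalised counts by gene symbol, from reads aligned with TopHat to mm10 per the submitters' processing notes. Counter, annotation, strand setting and versions were not given in the sources used here. Each table held 23282 rows, and GENCODE M21 (GRCm38) matched 22230 of them by symbol and 670 by a synonym, the 76 guidance genes all directly. Length and GC content are those of the longest coding transcript.

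Genes were filtered with filterByExpr (minimum count 10), scaled with TMM (factors 1.11 and 1.18 for Nr1d1+/+, 0.859 and 0.895 for Nr1d1-/-) and tested with edgeR 4.0.16 (quasi-likelihood, legacy=FALSE) in R 4.3.3. Genotype was the sole term, with 2 residual degrees of freedom. Alternatives were other scalings and filters, DESeq2 1.42.0, limma-voom (limma 3.58.1), the older estimate, offsets from natural splines (5 degrees of freedom) of each library on GC content and length, removal of Rn45s and small structured RNAs, the replicate number as a block and leaving out each library. The fit was tested on simulated data drawn for 14601 genes, where calls reached 11.2% at a 2-fold change, 88% at a 4-fold change and 0.0417% where nothing was changed. In that simulation few genes were changed, all genes had the same dispersion, and no GC or length trend was present. The real data differ in this, so these rates are not the detection or error rates of the comparison.

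The guidance genes, lists, tests and naming rule were chosen with earlier results of these data known. The rule named every called gene, the most abundant gene of each class and a set of anchor genes, and up to 5 signalling partners per direction. Further guidance genes were named after their values were seen. Promoter windows are RefSeq's (GRCm38.p6). Figures used matplotlib 3.10.9. Guidance genes with lower counts have wider errors. The floors of 3 counts cover counting error only. Replicates of both genotypes differed by more than sampling noise.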

Additional observations from a re-analysis of the deposited data

How the results depend on the processing

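Counts and folds were recomputed under 16 alternatives. The counts of guidance genes called moved by over 1.5 times in these: with library size only, 6 higher (from 10) and 12 lower (from 4), and with no filter on low counts 2 lower. Leaving out 1 library gave 5 to 13 higher and 2 to 7 lower. For the signalling partners (10 higher, 25 lower), 4 were higher with library size only and 6 with no filter, and leaving out 1 library gave 3 to 9 higher and 13 to 25 lower. In those fits the lone sample is assumed to vary like the other group. The median log2 fold of the guidance genes (0.091) was 0.15 with upper quartile factors, -0.285 with library size only, 0.018 with no filter, 0.032 where a mean of 5 CPM was required, 0.011 after removal of GC and length trends and 0.032 after their removal in a fit with a replicate block. Without 1 library it ran from 0.06 to 0.172. All 14 called genes kept their sign in every alternative, and 5 were called in all of them. Among the 62 tested genes, 22 changed sign in at least 1 alternative, none of them called. Over all genes, library size only gave 1281 higher and 4410 lower in place of 2446 and 2565, and removing GC and length trends gave 1605 and 1633. Without Nr1d1+/+ replicate 1 these were 1470 and 1811, and without Nr1d1+/+ replicate 2 they were 1036 and 1170. The cause of these changes was not tested.

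With the replicate number as a block, 11 guidance genes were higher and 5 lower, and 2622 and 2704 of all genes. What a number has in common across genotypes is not stated, and the difference between replicates 1 and 2 correlated between genotypes at r = 0.026 over 14801 genes, so the numbers do not show pairing. With 2 samples per group and few counts, differences in the Slit and Robo genes are poorly resolved.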
